A study of Salmo salar with 8 samples.

Results

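Return to constant light after short days was studied in the gill of Atlantic salmon by comparing T3 with T2, which together are 4 of the 8 samples of a single-nucleus RNA series. T3 fish (2 samples) had been raised as parr in constant light, held for 8 weeks on a short photoperiod of 8 h light and 16 h dark, and returned to constant light for 8 weeks, and they were sampled as smolts still in freshwater. T2 fish (2 samples) were taken at the end of the short photoperiod, also in freshwater, and the study's methods place both samplings somewhat earlier within these periods than the labels do. All fish came from one commercial strain, and the remaining samples, T1 parr in constant light and T4 fish after 24 h in seawater, served here for the estimate of the spread and as levels. For every sample, UMIs (unique molecules counted once each) were summed over all barcodes of its count file, so that the sample was the replicate.

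The gill of a freshwater salmon takes up ions, excretes ammonia and acid, exchanges gas and carries a large mucosal immune tissue. Smoltification, the change from a freshwater parr to a fish able to live in the sea, is timed by day length: a winter of short days followed by long days lets ion-transporting cells (ionocytes, or mitochondrion-rich cells) shift from taking salt up to secreting it. Salt secretion runs on the basolateral Na,K-ATPase and the cotransporter NKCC1, which bring chloride into the ionocyte, and on the apical chloride channel CFTR. Salmonids carry several copies of the Na,K-ATPase α1 subunit, whose balance is known to shift between freshwater and seawater life.

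The T3 samples held 3469522 and 3257730 UMIs in 2659 and 2375 nuclei, and the T2 samples 2850790 and 4033968 UMIs in 3373 and 1748 nuclei. The T2 samples were unlike each other in depth per nucleus, with medians of 638 and 1031 UMIs, whereas the T3 medians were 918 and 924 UMIs. Nuclei with 2500 detected genes or more carried 16.52% and 19.41% of the UMIs in T3, and 8.43% and 47.01% in T2. No pair of libraries shared more than 6 barcodes. The labels do not state whether the 2 samples of a time point are separate fish, so p-values measure only the spread between these samples, which may be technical.

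The files listed 34514 genes, and 24815 of them had enough UMIs for edgeR's quasi-likelihood test. At an adjusted p under 0.01, 75 genes changed (0.302% of those tested). In T3, 31 genes were higher (0.125%) and 44 were lower (0.177%), relative to a median log2 fold change over all tested genes of 0.00. In all 75 the T3 and T2 samples did not overlap in CPM (UMIs as a rate of the library total, after scaling by TMM factors), which held for 49.3% of all genes tested. Rises spanned 1.61 to 10.23 on the log2 scale with a median of 2.83, and falls spanned -1.62 to -5.16 with a median of -2.35. At an adjusted p under 0.05, 569 genes (2.29%) changed, 269 higher (1.08%) and 300 lower (1.21%) in T3. This looser threshold is named wherever it is used below. Over all genes tested, called or not, 12507 had a positive and 12306 a negative log2 fold change. These shares are the background for the counts of the gene lists below. In summed UMIs, fewer nuclei of a type and less RNA per nucleus cannot be told apart.

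The number of calls at 0.01 fell when any 1 of the 4 libraries was left out. Such a fit leaves 1 sample in that time point, so a lost call can come from lost power as well as from that library. The part of each was not tested. Without T2 replicate 1, T2 replicate 2, T3 replicate 1 or T3 replicate 2 there were 16, 20, 10 and 4 calls at 0.01, and 632, 109, 77 and 22 at 0.05. The 4 genes that passed 0.01 in every alternative tried were a carbonic anhydrase 4-like gene and the loci LOC106580506, LOC106570104 and LOC106602131, which carry no name in the tables used. The other 71 calls were lost at 0.01 without T3 replicate 2, where 20 of the 75 passed 0.05. All 75 genes kept their direction in each of these fits, which was nearly bound to happen because their T3 and T2 samples did not overlap.

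**Figure D1:**
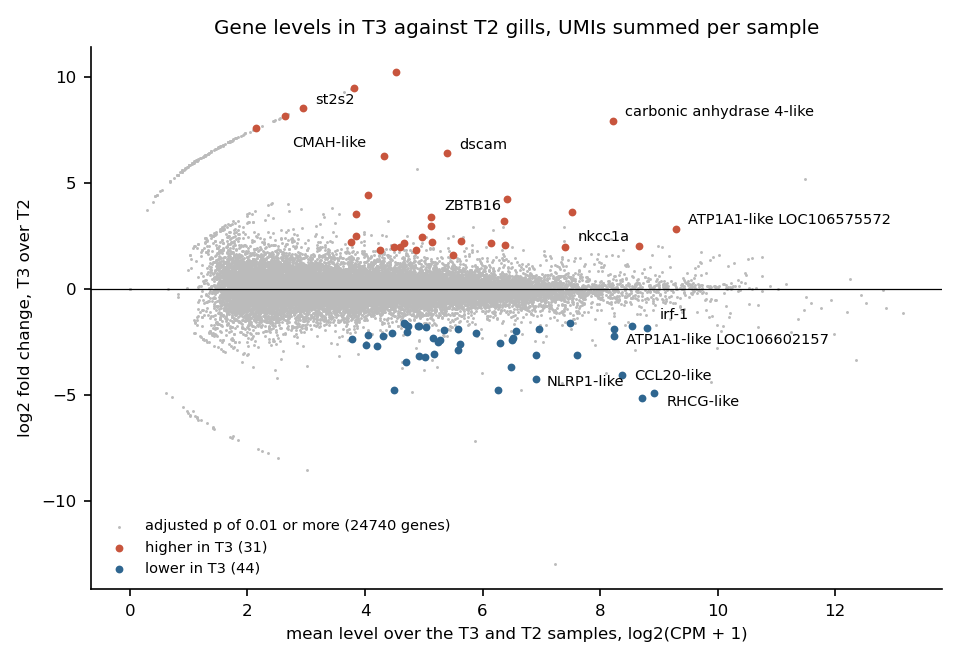
Log2 fold change of T3 over T2 (y axis) against the mean level over the T3 and T2 samples as log2(CPM + 1) (x axis) for the 24815 genes tested, 1 point a gene. The 31 genes higher in T3 and the 44 lower in T3 at an adjusted p under 0.01 are coloured, and the curved strings at the upper and lower left are genes at or near 0 UMIs in one time point.

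Genes of ion and acid-base transport moved in both directions. Carbonic anhydrase 4-like (LOC106569487), of the enzyme family that hydrates CO2 to bicarbonate and protons, had 478 and 706 CPM in T3, against 1.82 and 2.87 CPM in T2. The 2 time points were far apart, and the T1 samples lay at 21.7 and 11.1 CPM, also well under T3. The log2 fold change was 7.92 ± 0.59 (SE; edgeR adjusted p = 0.000505), and the adjusted p did not exceed 0.00699 in any of 13 alternative fits. Ionocyte-gated nuclei, those with at least 2 UMIs of nkcc1a, CFTR or Na,K-ATPase α1 copies, held 90% of the UMIs of this gene at T3, against 67.1% of all UMIs. Gates overlap, and 56.3% and 56.1% of the ionocyte-gated nuclei in the T3 samples, against 61.9% and 70.1% in the T2 samples, also passed the pavement gate (at least 2 UMIs of RHCG genes), so a placement names marker UMIs in the same nuclei and not a cell type.

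The Na,K-ATPase α1 copies, which form the catalytic subunit of the pump, split into a pair that rose and a pair that fell. LOC106575572 had 927 and 1262 CPM in T3, against 166 and 142 CPM in T2, a log2 fold change of 2.83 ± 0.30 (SE; edgeR adjusted p = 0.00375). LOC106602157 had 113 and 98.6 CPM in T3, against 554 and 437 CPM in T2, a log2 fold change of -2.22 ± 0.29 (adjusted p = 0.00699). The groups did not overlap for either copy, and T1 stood on the side of T2, at 203 and 317 CPM for LOC106575572 and 777 and 532 CPM for LOC106602157. LOC106610479 had 140 and 115 CPM in T3, against 450 and 491 CPM in T2 (log2 fold change -1.88 ± 0.26, adjusted p = 0.00828). LOC100136390 had 1063 and 1521 CPM in T3, against 393 and 375 CPM in T2, and passed only the threshold of 0.05 (1.75 ± 0.36, adjusted p = 0.0366). The copies are alike in sequence, so the split of reads among them by the aligner is uncertain. At the threshold of 0.01, LOC106575572 did not pass without any 1 of the 4 libraries, with an adjusted p of up to 0.0355, and without T3 replicate 2 the falls of LOC106602157 and LOC106610479 had adjusted p-values of 0.114 and 0.126.

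The cotransporter nkcc1a, which carries sodium, potassium and chloride together into the ionocyte, had 242 and 291 CPM in T3, against 83.9 and 54.5 CPM in T2. It rose by 1.95 ± 0.27 on the log2 scale (SE; edgeR adjusted p = 0.00794), and its adjusted p was 0.0605 without T2 replicate 2 and 0.0976 without T3 replicate 2. The only gene named here as CFTR, the apical chloride channel, was the copy CFTR II (LOC100136366). It had 32.7 and 41.2 CPM in T3, against 28.1 and 33.6 CPM in T2. The T3 and T2 samples of CFTR II overlapped, with a log2 fold change of 0.25 ± 0.26 (edgeR adjusted p = 0.685). Whether an unnamed locus is a further CFTR copy was not checked, so these values do not describe the channel as a whole. At the threshold of 0.05 the pump's β subunit gene at233 also rose, with 176 and 305 CPM in T3, against 86.1 and 84.4 CPM in T2 (1.5 ± 0.31, adjusted p = 0.0366). This gene and those below that are said to be named afterwards were picked after their values had been seen: at1b1, another β subunit, fxyd11b, a small regulator of the pump, and WNK4-like (LOC106607180), a kinase that regulates chloride cotransport, were 1.10, 1.08 and 1.26 higher on the log2 scale without passing 0.05.

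Of 20 tested genes of Na,K-ATPase and salt secretion, 4 rose and 2 fell at 0.05, beside 1.08% and 1.21% of all genes. In this list 17 were positive, beside 12507 of all 24815 genes. Its median log2 fold change was 1.00, beside 0.00 over all genes. The number that rose was 8 with DESeq2 and 10 without a filter on low counts. It was 2 without T2 replicate 1 or T3 replicate 1 and 1 without T2 replicate 2 or T3 replicate 2, and the number that fell was 0 without T3 replicate 1 or T3 replicate 2.

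**Figure D2:**
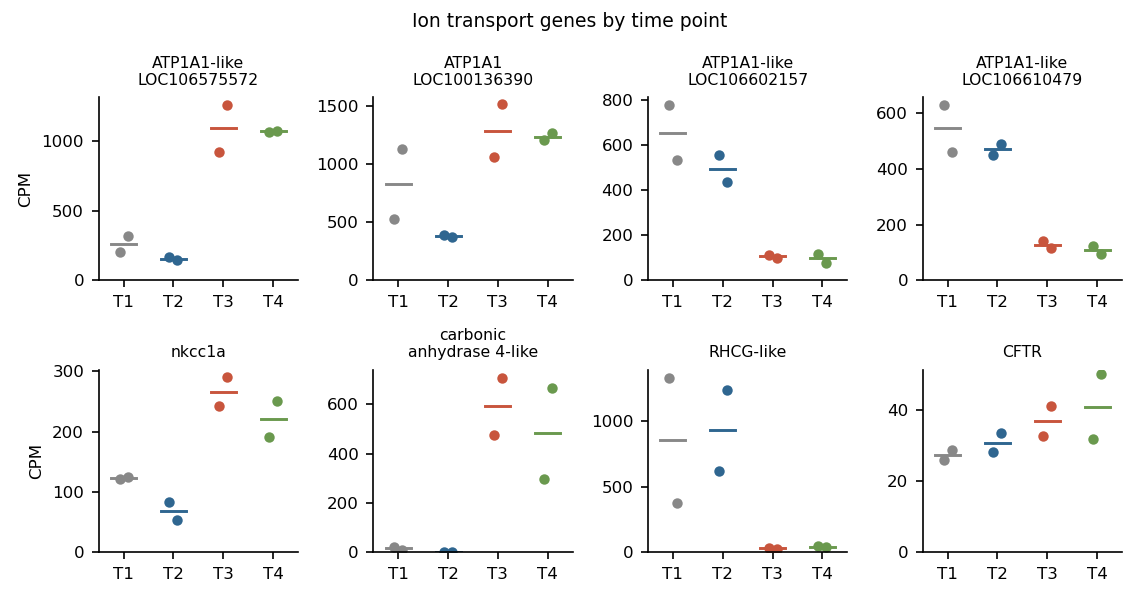
CPM (y axis, from 0) of 8 ion transport genes at the time points T1, T2, T3 and T4 (x axis), 1 point a sample and a bar at the mean of 2 samples. In T3, LOC106575572, LOC100136390, nkcc1a and carbonic anhydrase 4-like lie above T2, LOC106602157, LOC106610479 and RHCG-like lie below it, and CFTR II, labelled CFTR, overlaps. T3 and T2 did not overlap for 49.3% of all genes tested.

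Among acid-base and ammonia transporters the largest fall was that of an ammonium transporter Rh type C-like gene (LOC106562250), of the family of channels through which ammonia leaves the gill. It had 36.6 and 24.6 CPM in T3, against 623 and 1240 CPM in T2 and 1330 and 381 CPM in T1. The groups were wide apart although the T2 samples differed from each other, with a log2 fold change of -4.92 ± 0.60 (SE; edgeR adjusted p = 0.00495, and 0.0975 without T3 replicate 2). Goblet-gated nuclei, those with at least 2 UMIs of MUC5AC genes, held 88% of its UMIs at T2, against 57.5% of all UMIs. One gene of that gate, mucin-5AC-like LOC106577588, had 55% of its own UMIs at T2 in vascular-gated nuclei, which held 8.48% of all UMIs, so the gate is not purely one of goblet cells, and the RHCG-like gene is itself a gate gene for pavement cells. The second Rh gene, rhcg, named afterwards, had 351 and 391 CPM in T3, against 571 and 487 CPM in T2, and did not pass 0.05 (-0.51 ± 0.27, adjusted p = 0.371). The sodium/hydrogen exchanger 2-like gene (LOC106586777), which moves acid out across the apical membrane, had 123 and 149 CPM in T3, against 49.3 and 50.0 CPM in T2, and rose at 0.05 (1.45 ± 0.24, adjusted p = 0.017). The anion exchanger slc26a6-like (LOC106572269) had 14 and 10 UMIs in T3 and none listed in T2. With a floor of 3 UMIs per library it was at least 3.72-fold higher in T3 (adjusted p = 0.0368). Of 23 tested genes of this list, 3 rose and 1 fell at 0.05, beside 1.08% and 1.21% of all genes. The median of the list was 0.26. The number that rose was 6 without a filter, 2 in nuclei of at least 200 and under 2500 detected genes and without T2 replicate 1, and 1 without T2 replicate 2, T3 replicate 1 or T3 replicate 2, which last setting also left 0 falls.

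Tight junction genes, whose proteins seal the space between cells, gave only falls among the members called at 0.05, while 12 of 31 tested members were positive. Claudin-4-like (LOC106563812) had 85.0 and 97.4 CPM in T3, against 553 and 806 CPM in T2, a fall at 0.05 of 2.90 on the log2 scale (SE 0.48; edgeR adjusted p = 0.0173). Claudin-3-like (LOC106563774) and cingulin-like (LOC106588167), a cytoplasmic junction plaque protein, fell by 1.10 and 0.88 on the log2 scale at the same threshold. Of 31 tested members 0 rose and 3 fell, beside 1.08% and 1.21% of all genes, and the median was -0.07. The number of falls was 2 without T2 replicate 1 and 0 without T2 replicate 2, T3 replicate 1 or T3 replicate 2.

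The named genes with the largest rises belonged to several functions. The gene st2s2 had 44 and 47 UMIs in T3 and none listed in T2, so that it was at least 14.3-fold higher in T3 (edgeR adjusted p = 0.00362). The adhesion molecule dscam had 210 and 334 UMIs in T3, against 6 and 0 UMIs in T2 (log2 fold change 6.38 ± 0.76, adjusted p = 0.00471). This fold rests on the few T2 UMIs, and the fitted value was 11.14 without T2 replicate 1, which leaves no listed T2 UMI, and 5.18 without T2 replicate 2. Ionocyte-gated nuclei held 94.5% of the UMIs of st2s2 and 94.7% of those of dscam at T3, against 67.1% of all UMIs.

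Enzymes of sialic acid, the sugar that caps mucins and cell-surface glycans, were among the named genes with the largest rises. They were picked for their rise, and no list of sialic acid genes was tested. CMAH-like (LOC106609768), of the family that hydroxylates CMP-sialic acid in mammals, had 179 and 82 UMIs in T3, against 0 and 3 UMIs in T2. With the unlisted T2 sample taken as 0, the ratio of its summed levels was 83.8 (95% counting interval 28.4 to 409, counting error only). That sample may hold a few unlisted UMIs, which would lower the ratio. The edgeR adjusted p was 0.00471. The fitted log2 fold change was 6.27, and it was 5.54 without T2 replicate 1 and 9.98 without T2 replicate 2, which leaves no listed T2 UMI. GNE (LOC106609886), which makes the first committed step of sialic acid synthesis, had 90.0 and 71.0 CPM in T3, against 17.5 and 16.2 CPM in T2 (log2 fold change 2.26 ± 0.25, adjusted p = 0.00412). Pavement-gated nuclei held 90.4% of the CMAH-like UMIs at T3, against 66% of all UMIs.

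Transcription factors and signalling genes were also among the rises. ZBTB16 (LOC106603639), a zinc finger repressor, had 64.0 and 60.8 CPM in T3, against 3.65 and 7.82 CPM in T2 (log2 fold change 3.39 ± 0.41, edgeR adjusted p = 0.00484, and a log2 fold change of 4.09 without T2 replicate 2). The homeobox gene zhx3a (LOC106582889) rose by 2.49, the endosomal protein gene LITAF (LOC106564305) by 2.42, and egln2, a prolyl hydroxylase of the oxygen-sensing pathway, by 2.17 on the log2 scale. The forkhead gene LOC106589574 carries the symbol foxl3 but the product name forkhead box protein L1-like, so which forkhead gene it is stays unsettled. It had 38.6 and 34.7 CPM in T3, against 12.4 and 6.77 CPM in T2. Pillar and connective tissue-gated nuclei held 93.2% of its UMIs at T3, against 68.4% of all UMIs. Named afterwards, sost, an inhibitor of Wnt signalling, tdrd9 (LOC106610980) and the mitochondrial gene HIGD1A (LOC106569334) rose by 1.83, 1.82 and 1.61.

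Loci without a name in these tables included some of the clearest differences, and they too were singled out afterwards. LOC106580506 had 1278 and 1044 UMIs in T3, against 79 and 102 UMIs in T2 (log2 fold change 3.61 ± 0.24, edgeR adjusted p = 0.000505). LOC106570104 had 562 and 535 UMIs in T3, against 28 and 27 UMIs in T2 (4.24 ± 0.34, adjusted p = 0.000659). Of the 31 risers, 5 had no UMI listed in either T2 sample. They were st2s2, LOC106600730, LOC106602131, LOC106606469 and LOC106590197, and the 4 without a name were at least 47, 27.9, 11.2 and 7.30-fold higher in T3. In T1, LOC106606469 was also listed at 0 in both samples, whereas LOC106590197 had 9.24 and 13 CPM. In the other direction LOC106611944 had 83 and 72 UMIs in T3, against 1393 and 4280 UMIs in T2 (-5.16 ± 0.59, adjusted p = 0.00471, and a log2 fold change of -4.48 without T2 replicate 2). Its T1 levels, 40.7 and 41.0 CPM, were nearer to the T3 levels of 23.2 and 22.1 CPM than to the T2 levels of 508 and 1115 CPM.

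**Figure D3:**
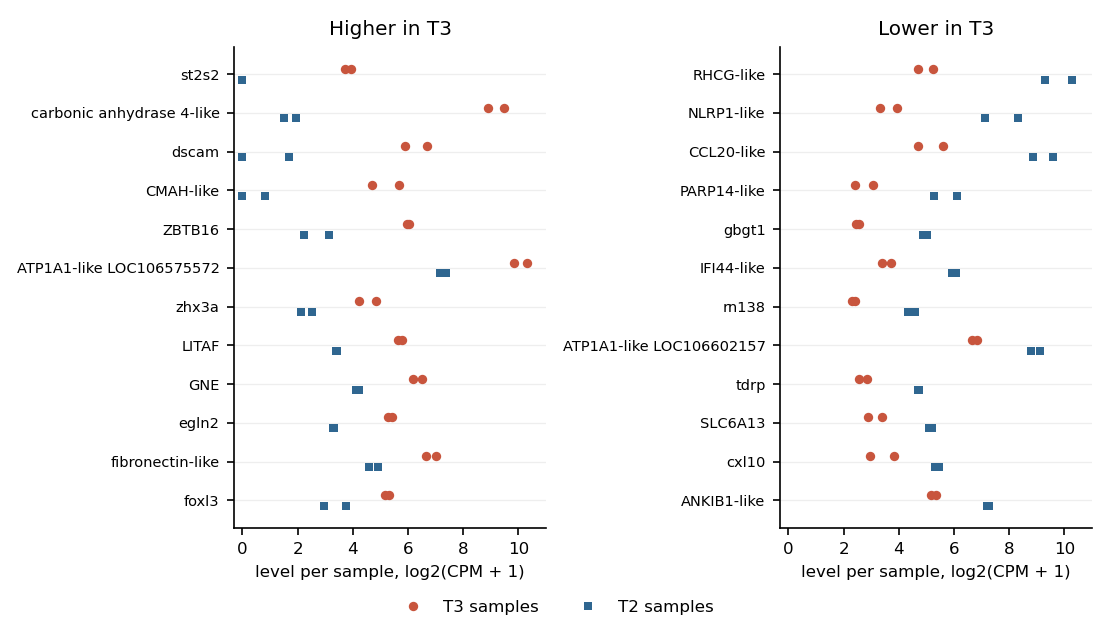
Level of each sample as log2(CPM + 1) (x axis) for the 12 named genes with the largest rise (left) and the 12 with the largest fall (right), T3 samples as circles and T2 samples as squares. The genes were chosen among those whose T3 and T2 samples do not overlap, as holds for 49.3% of all genes tested.

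The second largest fall among named genes was that of NLRP1-like (LOC106592855), followed here by falls whose UMIs lay in the same gate. NLRP1-like, related to a mammalian inflammasome sensor, had 51 and 29 UMIs in T3, against 868 and 528 UMIs in T2 (log2 fold change -4.28 ± 0.44, edgeR adjusted p = 0.00364). T1 levels were 237 and 362 CPM, on the side of T2, whose levels were 317 and 138 CPM. Its adjusted p was 0.0562 without T3 replicate 2, and its log2 fold change was -3.55 without T2 replicate 1. Ionocyte-gated nuclei held 94.3% of its UMIs at T2, against 37.8% of all UMIs. The same gate held 84.5% of the T2 UMIs of tdrp and 78% of those of SLC6A13 (LOC106565344), a GABA transporter of the sodium-dependent family, which fell by 2.19 and 2.09 on the log2 scale.

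Chemokines, the secreted proteins that draw leukocytes, were lower throughout the called members. CCL20-like (LOC106570861) had 47.8 and 25.2 CPM in T3, against 470 and 775 CPM in T2 and 203 and 154 CPM in T1. It fell by 4.09 on the log2 scale (SE 0.38; edgeR adjusted p = 0.00203) and passed 0.01 in 12 of 13 alternatives, with 0.0251 without T3 replicate 2. At T2, goblet-gated nuclei held 82.4% of its UMIs, against 57.5% of all UMIs, and pavement-gated nuclei held 87.3%, against 68.9% of all UMIs. The interferon-induced chemokine cxl10 had 13.1 and 6.76 CPM in T3, against 39.0 and 42.7 CPM in T2 (-2.03 ± 0.29, adjusted p = 0.00951). CCL19-like (LOC106585878) had 11.5 and 9.22 CPM in T3, against 33.9 and 36.2 CPM in T2, a fall at 0.05 (-1.76 ± 0.26, adjusted p = 0.0115). Of 39 tested chemokines and cytokines 0 rose and 9 fell at 0.05, with a median of -0.51, beside falls of 1.21% over all genes. Called or not, 12 of the 39 were positive. The falls include cxl10, also counted in the interferon list below, and the receptor tnr5 (CD40), also counted under antigen presentation. The falls numbered 15 without a filter, 5 without TMM, 4 in nuclei under 2500 genes, and 4, 3, 2 and 1 without T2 replicate 1, T2 replicate 2, T3 replicate 1 and T3 replicate 2.

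Genes of the interferon response were lower in T3 in 34 of 35 tested members, beside 12306 of all 24815 genes. The transcription factor irf-1, which turns on interferon-stimulated genes, had 200 and 187 CPM in T3, against 731 and 656 CPM in T2 (log2 fold change -1.84 ± 0.24, edgeR adjusted p = 0.00677). Its second entry, irf1-2, had 168 and 165 CPM in T3, against 575 and 572 CPM in T2 (-1.78, adjusted p = 0.00495). The samples of each time point lay close together and the time points far apart. IFI44-like (LOC106565178), an interferon-induced gene, fell by 2.53 on the log2 scale. Outside this list, PARP14-like (LOC106587891, symbol PARP15), of an antiviral ADP-ribosyltransferase family, fell by 3.16. Named afterwards, irf7, another interferon regulatory factor, fell by 1.37 at 0.05. In the list 0 genes rose and 8 fell at 0.05, the median was -0.91, and the summed level was 2053 and 1891 CPM in T3, against 4160 and 4162 CPM in T2. The summed level was 6767 and 3393 CPM in T1 and 2621 and 1706 CPM in T4, so it can differ widely within a time point. The number that fell was 18 without a filter and 3, 2 and 0 without T2 replicate 2, T3 replicate 1 and T3 replicate 2, and irf-1 itself had an adjusted p of 0.0711 and 0.114 without either T3 replicate.

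Antigen presentation genes, by which cells display peptides on MHC molecules, were lower in T3 in 29 of 29 tested members, with 7 past 0.05, 0 past 0.01 and a median of -1.02. Over all genes, 12306 of 24815 were lower and 1.21% fell at 0.05. The peptide transporters tap2a1 and tap1 fell by 1.31 and 1.21 on the log2 scale, NLRC5-like (LOC106560850), a transactivator of MHC class I genes in mammals, by 1.65, and tnr5 (CD40), a receptor through which T cells license antigen-presenting cells, by 1.54. Named afterwards, b2m, the light chain of MHC class I, had 430 and 423 CPM in T3, against 1720 and 1691 CPM in T2 (-2.0 ± 0.44, edgeR adjusted p = 0.0436). CD74 (LOC106604844), the MHC class II chaperone, had 2611 and 2202 CPM in T3, against 3327 and 5648 CPM in T2, and did not pass (-0.90 ± 0.41, adjusted p = 0.288). The number of falls was 12 with DESeq2, 14 without a filter, 2 in nuclei under 2500 genes, 4 without T2 replicate 1 and 0 without T2 replicate 2, T3 replicate 1 or T3 replicate 2.

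**Figure D4:**
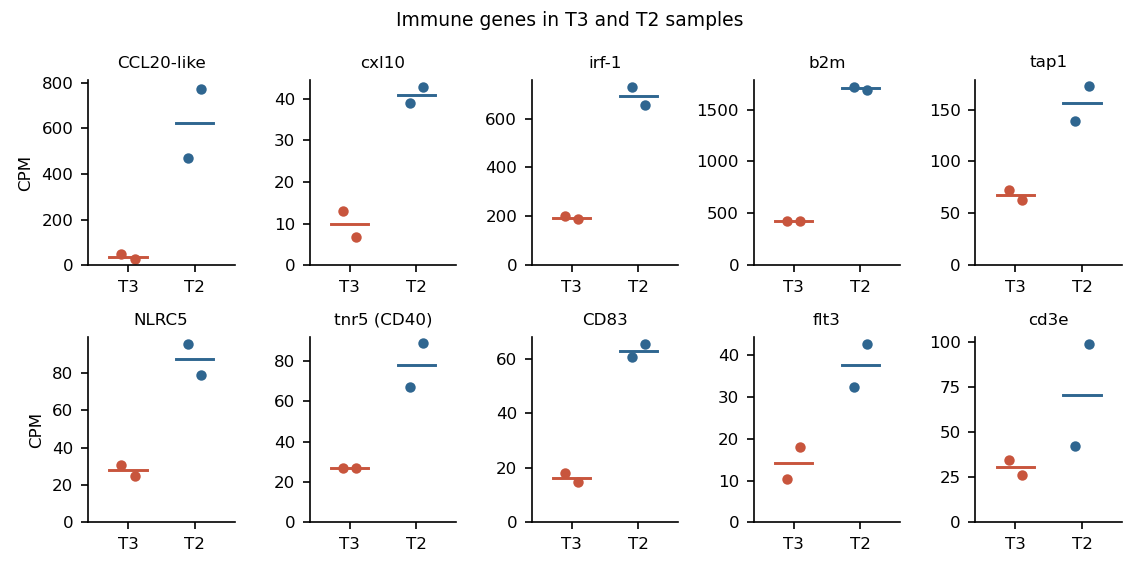
CPM (y axis, from 0) of 10 immune genes in the T3 (left) and T2 (right) samples, 1 point a sample and a bar at the mean of 2 samples. The T3 samples lie under both T2 samples in each panel, as holds for 24.5% of all genes tested. The genes were picked for display, b2m after its values were seen. For cd3e the T2 samples are as far apart as 42.0 and 98.8 CPM.

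Leukocyte markers were lower in T3 in most members, but few passed the test. Of 27 tested myeloid and dendritic genes 0 rose and 5 fell at 0.05, with a median of -0.87, beside falls of 1.21% over all genes. CD83 (LOC106605366), a surface protein of mature dendritic cells, had 18.2 and 14.7 CPM in T3, against 60.6 and 65.4 CPM in T2 (log2 fold change -1.93 ± 0.21, edgeR adjusted p = 0.00412). The dendritic cell receptor flt3 (LOC106579503) had 10.3 and 18.1 CPM in T3, against 32.5 and 42.7 CPM in T2, a fall at 0.05 (-1.41 ± 0.29, adjusted p = 0.0346). The lysozyme gene lyz (LOC100136365) and spd2b fell by 1.34 and 1.32 at 0.05. The gene spd2b counts in this list but has no product name here, so whether it marks leukocytes is unsettled. Named afterwards, the dendritic cell factor batf3 fell by 1.94 at 0.05. The falls numbered 12 without a filter, 3 in the fit of T2 and T3 samples alone and in nuclei under 2500 genes, and 1, 1 and 0 without T2 replicate 2, T3 replicate 1 and T3 replicate 2.

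The T cell list had a median of -0.98 over 27 tested genes, with 0 rises and 1 fall at 0.05, beside falls of 1.21% over all genes. The fall was that of crtam, an adhesion molecule of activated T cells (-1.74 ± 0.34, edgeR adjusted p = 0.031). The T cell receptor component cd3e had 34.7 and 26.1 CPM in T3, against 42.0 and 98.8 CPM in T2, and did not pass (-1.22 ± 0.35, adjusted p = 0.101). The T cell falls numbered 11 without a filter, 3 with DESeq2, 6 without T2 replicate 1, and 0 in nuclei under 2500 genes, in the fit of T2 and T3 samples alone, and without T2 replicate 2, T3 replicate 1 or T3 replicate 2. The share of nuclei with at least 2 UMIs of CD3 genes was 1.01% and 0.842% in T3 (exact 95% Clopper-Pearson intervals 0.67 to 1.47% and 0.515 to 1.30%), against 0.534% and 8.01% in T2 (0.317 to 0.842% and 6.78 to 9.38%), so that only T2 replicate 2 stood above T3. Intervals cover counting error only. Among ionocyte-gated nuclei the share was 1.41% and 0.89% in T3, against 0.801% and 7.77% in T2, close to that of all nuclei in each sample, so no difference in T cell number is read from these shares. For myeloid genes this share was 3.27% and 3.12% in T3, against 4.18% and 15% in T2, and among ionocyte-gated nuclei 4.65% and 3.08% in T3, against 6.54% and 17.2% in T2. T2 replicate 2 is also the library with 47.01% of its UMIs in nuclei of 2500 genes or more. In nuclei under 2500 genes the T cell share was 0.892% and 0.784% in T3, against 0.389% and 7.76% in T2. Doublets were not called or removed, and their part in these shares was not tested. Of 11 tested B cell genes 0 passed 0.05 with edgeR or DESeq2 and 4 had an unadjusted p under 0.05, with a median of -0.43 that was 0.04 without T2 replicate 2.

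Hormone and clock genes gave calls at the threshold of 0.05 only. The growth hormone receptor gene LOC100136463 had 21.8 and 34.4 CPM in T3, against 11.3 and 7.04 CPM in T2, a rise at 0.05 (log2 fold change 1.64 ± 0.33, edgeR adjusted p = 0.0337). A further growth hormone receptor gene, ghr1, named afterwards, had 10.6 and 29.2 CPM in T3, against 5.47 and 8.86 CPM in T2. It did not pass 0.05 (1.43 ± 0.44, adjusted p = 0.125). The glucocorticoid-induced co-chaperone fkbp5 had 56.8 and 141 CPM in T3, against 12.8 and 13.3 CPM in T2 (2.92 ± 0.63, adjusted p = 0.0425), and a further copy, FKBP5-like (LOC106565346), was 2.90 higher. In T1, fkbp5 had 56.9 and 29.6 CPM, so that T1 replicate 1 reached the level of T3 replicate 1. FKBP5-like had 80.6 CPM in T1 replicate 1 and 34.2 in T1 replicate 2, beside 81.1 CPM in T3 replicate 1. The T3 samples of both copies differed from each other more than 2-fold, and reads may be split between the copies. The signal transducer sta5b fell by 1.17 at 0.05. Named afterwards, the prolactin receptor prlr had 29.4 and 40.3 CPM in T3, against 53.6 and 57.6 CPM in T2, and did not pass (-0.68 ± 0.22, adjusted p = 0.144). Of 21 tested hormone genes 3 rose and 1 fell at 0.05, beside 1.08% and 1.21% of all genes. The median of the list was 0.43. The rises numbered 8 without a filter, 1 without T2 replicate 1, and 0 in nuclei under 2500 genes and without T2 replicate 2, T3 replicate 1 or T3 replicate 2.

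Of 34 tested clock genes 1 rose at 0.05, CRY1-like (LOC106565112), a repressor of the circadian loop. Over all genes 1.08% rose, so this 1 call is not read as a trait of the list. It had 54.0 and 114 CPM in T3, against 12.8 and 17.7 CPM in T2 (log2 fold change 2.44 ± 0.46, edgeR adjusted p = 0.0286). T1 had 52.0 and 37.5 CPM, and whether light sets the level of this gene was not tested. The clock list had a median of 0.58. CRY1-like did not pass 0.05 without T2 replicate 1, T2 replicate 2 or T3 replicate 2, and without a filter 9 clock genes rose and 1 fell.

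Matrix genes were higher in T3 in 71 of 74 tested members, with a median of 1.07, 8 rises and 0 falls at 0.05. Over all genes, 12507 of 24815 were higher and 1.08% rose at 0.05. Fibronectin-like (LOC106574791), a protein that links cells to the matrix, had 99.0 and 129 CPM in T3, against 28.8 and 23.2 CPM in T2 (log2 fold change 2.13 ± 0.28, edgeR adjusted p = 0.00726). Vascular-gated nuclei held 49.3% of its UMIs at T3, against 10.3% of all UMIs, and 41.1% at T2, against 8.48% of all UMIs. At 0.05 a further pair of fibronectin genes, fn1a (LOC106582526) and FN1 (LOC100380696), rose by 1.58 and 2.12, and lyox, which cross-links collagen, by 1.91. The collagen genes COL1A1 (LOC106589632) and COL1A2 (LOC106570460), named afterwards, were 1.5 and 1.35 higher with adjusted p-values of 0.0683 and 0.0508. The summed level of the list was 22578 and 26040 CPM in T3, against 16424 and 8723 CPM in T2, and it was the T2 samples that differed most. The rises numbered 26 with DESeq2, 45 without a filter, 5 in the fit of T2 and T3 samples alone, 3 in nuclei under 2500 genes, 34 without T2 replicate 1, 1 without T3 replicate 1, and 0 without T2 replicate 2 or T3 replicate 2.

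Mucus genes divided. The goblet cell mucin-5AC-like (LOC106602669) had 706 and 759 CPM in T3, against 2161 and 2977 CPM in T2, a fall at 0.05 (log2 fold change -1.81 ± 0.40, edgeR adjusted p = 0.0439). Mucin-2-like (LOC106608496) fell by 1.69 at the same threshold. GNE, counted in this list too, was its 1 rise among 10 tested members, whose median was 0.17. Over all genes 1.08% rose and 1.21% fell at 0.05. In T1, LOC106602669 had 1700 and 733 CPM, so its level also differed within a time point. Named afterwards, the mucin-5AC-like copies LOC106600198 and LOC106577588 overlapped between T3 and T2. Their log2 fold changes were 0.03 ± 0.23 and 0.19 ± 0.24 (edgeR adjusted p = 0.969 and 0.762). The mucin falls were not called in nuclei under 2500 genes, nor without T2 replicate 2, T3 replicate 1 or T3 replicate 2, and 1 of them was left without T2 replicate 1 or with the replicate number as a block.

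Hemoglobin genes were higher in T3, and 2 muscle genes passed 0.05. Hemoglobin genes gave all 5 rises at 0.05 among 17 tested erythrocyte genes, whose median was 1.22. Over all genes 1.08% rose. The β-globin gene LOC106601074 had 467 and 511 CPM in T3, against 86.1 and 103 CPM in T2 (log2 fold change 2.36 ± 0.43, edgeR adjusted p = 0.0239), and copies of hemoglobin are near-identical. The list summed to 12428 and 12287 CPM in T3, against 5580 and 4463 CPM in T2. In T4 it summed to 5402 and 13501 CPM, so this level can differ widely within a time point. Nuclei with at least 2 UMIs of the erythrocyte gate genes, hemoglobins and alas2, made up 98.3% of each T3 sample, against 72.4% and 91.2% in T2. This gate therefore does not set erythrocytes apart. The rises numbered 10 with DESeq2, 11 without a filter, 9 in the fit of T2 and T3 samples alone, 1 in nuclei under 2500 genes and without T2 replicate 1, and 0 without T2 replicate 2, T3 replicate 1 or T3 replicate 2. Of 42 tested muscle genes 2 rose at 0.05, beside 1.08% of all genes. They were non-muscle caldesmon-like (LOC106573078) and titin-like (LOC106570833), which rose by 1.18 and 1.12. By name neither is a clear muscle marker: the first is a non-muscle form, and the second carries the symbol FAM169A in the study's tables. The muscle gate cannot place the titin-like gene. It held 0 nuclei in both T2 samples, and at T3 it held 0.436% of all UMIs and 0% of those of the gene. Pillar and connective tissue-gated nuclei held 71.4% of its UMIs at T3, against 68.4% of all UMIs, and 62.1% at T2, against 40.9% of all UMIs. The T3 and T2 samples did not overlap for 45.2% of muscle genes, beside 49.3% of all genes. The muscle median was 2.24, or 1.63 with members at 0 in a time point set to their bounds, and it was 0.53 without T3 replicate 2. The summed muscle level was 1316 and 1647 CPM in T3, against 924 and 731 CPM in T2. The number of genes called at 0.01 was 76 with erythrocyte and muscle genes left out, and 75 of them were those of the full table. The part of blood and muscle RNA in the other differences was not tested.

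Several groups gave no call at 0.05. They were 44 tested cell cycle genes with a median of -0.10, 47 of the epidermal barrier with 0.01, 29 of the vascular endothelium with 0.66, 37 immediate early and stress genes with -0.21, 164 ribosomal protein genes with 0.07 and 7 of the respiratory chain with 0.42. In this order 1, 9, 11, 7, 9 and 1 of them had an unadjusted p under 0.05, DESeq2 called 0, 4, 1, 1, 3 and 0, and without a filter on low counts 1 to 7 genes of each list passed. Single rises came from phop1, a phosphatase of mineralising tissue, among 15 cartilage and bone genes (2.48, edgeR adjusted p = 0.0204) and from RTN1-like (LOC106598511) among 6 nerve genes (3.74, adjusted p = 0.039). The chaperone genes hs90a and HSPA12A-like (LOC106606490) rose by 1.77 and 2.41 at 0.05 among 24 tested, beside rises of 1.08% over all genes. The medians of these 3 lists were 0.85, 0.38 and 0.25, and without T2 replicate 2, T3 replicate 1 or T3 replicate 2 they had 0 rises.

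In a list of genes that the study names, some chosen on these same samples, 2 of 20 tested rose and 6 fell at 0.05, with a median of -0.77. Over all genes 1.08% rose and 1.21% fell. The list is labelled as photoperiod genes, but it includes cxl10, which the study names for seawater transfer, and leaves out nkcc1a. CUZD1-like (LOC106562604), an epithelial secreted or membrane protein, had 845 and 418 CPM in T3, against 935 and 715 CPM in T2, and the samples overlapped (log2 fold change -0.38 ± 0.38, edgeR adjusted p = 0.68). The ammonium transporter rhag (LOC106571195) had 236 and 212 CPM in T3, against 206 and 85.2 CPM in T2 (0.63 ± 0.39, adjusted p = 0.454). The falls of this list numbered 3 in nuclei under 2500 genes and 2, 1 and 0 without T2 replicate 2, T3 replicate 1 and T3 replicate 2, and its rises numbered 1 without any 1 of the 4 libraries.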

How the data were processed

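Nuclei from frozen gill were released by detergent lysis, purified on a sucrose gradient and sequenced with 10x 3′ v3 chemistry. The authors made the deposited files, raw UMI counts per gene and nucleus, with Cell Ranger against ICSASG_v2 and the NCBI annotation; the submitters' processing notes give version 3.0.1 and the methods a later one. A gene is listed in a file only with counts in at least 3 nuclei, so 0 means not listed. Nuclear RNA under-represents transcripts found mainly in the cytoplasm. UMIs were summed per sample with Python 3.11.15. The counts of all 8 samples were fitted with edgeR 4.0.16 (R 4.3.3; filterByExpr minimum count 10, TMM, quasi-likelihood test, contrast T3 minus T2, Benjamini-Hochberg adjustment), with thresholds of 0.01 and 0.05 and SE taken as the log2 fold change over the square root of F. Alternatives were DESeq2 1.42.0, other scalings, no filter, the T2 and T3 samples alone, a replicate block, nuclei of at least 200 and under 2500 genes, gene sets left out and each library left out. An exact 2 against 2 permutation test cannot go below p = 0.33.

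Named genes were the 12 largest rises, the 12 largest falls and the 5 smallest p in each direction among named genes past 0.01 with non-overlapping samples and at least 20 UMIs. Added to these were up to 4 members per list past 0.05 and a set of genes the study names. That set held the Na,K-ATPase α1 copies, CFTR, nkcc1a, CUZD1-like, rhag, CD74, cd3e and flt3. Exceptions are marked as named afterwards. Names came from RefSeq and the study's tables for 6086 of 27587 locus identifiers. The members and lists were chosen with earlier results of these data known. The test was tried on simulated data. Results for 1 withheld item are not reported here.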

Additional observations from a re-analysis of the deposited data

How the results depend on the processing

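Leaving out 1 library can hardly reverse a gene whose T3 and T2 samples do not overlap, as in all 75 genes called at 0.01. These genes kept their direction in every alternative fit. Their number was 395 with DESeq2 (185 higher and 210 lower in T3, 9622 adjusted p-values missing), 1328 without a filter on low counts (695 and 633), 33 in nuclei of at least 200 and under 2500 genes (19 and 14) and 569 at a threshold of 0.05 (269 and 300). Leaving out 1 library gave 4 to 20 calls, 4 to 6 higher and 0 to 15 lower, with the lowest number without T3 replicate 2. Library sizes without TMM gave 92 calls (46 higher and 46 lower), with a median over all genes of 0.092 on the log2 scale. The T2 and T3 samples alone gave 63 calls, of which 42 were shared with the 75. With the replicate number as a block there were 77 calls (34 and 43), 63 of them shared. Deviations of same-numbered samples correlated at -0.052 for T2 with T3 and at 0.202 for T3 with T4, the largest value of any pair of time points. Such values cannot show whether same-numbered samples shared handling, and the pairing was not used in the main fit. In nuclei thinned to 500 UMIs, the T cell share was 0.339% and 0.339% in T3, against 0.338% and 3.33% in T2.

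With 2 samples a time point, single genes rest on few UMIs and on each library. The median standard error of a log2 fold change was 0.31, so that differences of that size lie within the error. At an unadjusted p under 0.05, 4428 genes passed.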
